A study of Mus musculus with 42 samples.

Results

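The genes described here encode the proteins of the mitochondrial ribosome. They were taken as every protein-coding gene whose symbol begins with Mrpl or Mrps and a number, in both deposited count tables. The rule found 77 genes, 48 of the large subunit (Mrpl) and 29 of the small subunit (Mrps), among 35275 genes in all and 22026 protein-coding ones. Another 4 genes with such symbols are pseudogenes and were left out. RNA-seq was done on whole cerebellum, flash frozen, of C57BL/6 mice, which the study's design text gives as C57/BL6NTac males. From 3 months of age the mice had food ad libitum (AL), a fast of 16 h each day (IF16) or a fast of 24 h on alternate days (EOD), and were taken when 6 months old. Other mice on the same 3 regimens went back to unrestricted food for 2 months and were taken when 8 months old. These refed groups are called AL-R, IF16-R and EOD-R here, and the labels and the plots write a point in place of the hyphen. There were 5 libraries in each of the 6 groups. All mice had the same diet and strain, and the AL-R mice were never fasted. The labels do not name the animals behind the replicates, so the p-values measure the spread between these libraries.

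The mitochondrial ribosome translates the small set of messages that the mitochondrial genome encodes, all of them core subunits of the respiratory chain and of ATP synthase. Its ribosomal RNAs come from the mitochondrial genome, whereas every one of its proteins is encoded in the nucleus, made in the cytosol and imported. The small subunit reads the message at the decoding centre, and the large subunit forms peptide bonds and guides the new chain through an exit tunnel to the inner membrane. Neurons depend heavily on respiration, and inherited defects of several of these proteins cause disease of brain, heart or liver.

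Promoters of these genes are the stretches of the genome that the set can be compared on without any expression value, and are shown for that reason. RefSeq (GRCm38.p6, the assembly on which mm10 is based) gave a window from 250 bases before to 50 bases after the start for 68 of the 77 genes and for 15796 genes in all. Letters bound by 3 factors known from promoters of genes for mitochondria were searched on both strands. The NRF1 motif, whose letters are the capitals below, was in 13 of 68 windows (19.1%) against 7.48% of all windows. The ETS letters CCGGAAGT, the core read by GABP, were in 12 (17.6%) against 5.86%. The YY1 letters AANATGGCG were in 10 (14.7%) against 3.84%. At least 1 of the 3 was in 32 windows (47.1%), against 15.6% of all windows. The SP letters CCCCGCCCC, common in promoters of every kind, were in 13 (19.1%) against 18.1%. The letters of the motifs differ, but each motif, SP included, holds at least 1 CpG. The windows of the set had a median of 21 CpG per window against 14 over all windows, and a median GC content of 58% against 57%. The shares are a description, and no test was made of them.

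For the 4 genes whose NRF1 letters lie nearest to a start, the nearest match is printed with 10 bases on either side, read on the strand that holds the letters, with that match in capitals. In Mrps26 another match overlaps the printed one and lies partly in its lower-case letters. The windows lie at chr2:130563745-130563774 (minus strand) for Mrps26, chr17:45686343-45686372 (minus) for Mrpl14, chr1:42851218-42851247 (plus) for Mrps9 and chr11:97315721-97315750 (plus) for Mrpl45.
Mrps26: gccagcgcctGCGCCTGCGCccggcccgga
Mrpl14: cccgcacgctGCGCCTGCGCgccaggggtt
Mrps9: tgggaggtctGCGCCTGCGCagtctccagg
Mrpl45: tggagagcgtGCGCGTGCGCgcgactcacc
Of the 13 genes with NRF1 letters, 10 had a match wholly before the start, as did 958 of the 1182 genes with these letters among all windows.

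The 4 ETS matches nearest to a start lie at chr14:54426900-54426927 (minus) for Mrpl52, chr5:31613938-31613965 (plus) for Mrpl33, chr9:98601673-98601700 (minus) for Mrps22 and chr19:45006437-45006464 (minus) for Mrpl43. Mrpl52 and Mrpl33 return below, since each has the smallest p of the members in a comparison.
Mrpl52: agcaagggaaCCGGAAGTgggcgtggcc
Mrpl33: cgcgcatgccCCGGAAGTagtcgttgag
Mrps22: acctctcgagCCGGAAGTtgctctatcg
Mrpl43: aaccccggaaCCGGAAGTcaccggttag
Here 10 of the 12 genes had a match wholly before the start, as did 697 of the 925 genes with these letters among all windows.

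YY1 letters lay elsewhere in the window: 8 of the 10 genes had a match wholly after the start, as did 337 of the 606 genes with these letters among all windows. The 4 nearest to a start lie at chr11:94653789-94653817 (plus) for Mrpl27, chr17:46111005-46111033 (plus) for Mrps18a, chr13:99344790-99344818 (plus) for Mrps27 and chr13:118387219-118387247 (minus) for Mrps30.
Mrpl27: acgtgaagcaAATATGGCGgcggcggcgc
Mrps18a: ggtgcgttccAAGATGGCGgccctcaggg
Mrps27: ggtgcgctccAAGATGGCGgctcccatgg
Mrps30: gcggcgggcgAAAATGGCGgcggccaggt
The YY1 letters as searched include an ATG followed by GCG, so every match holds it.

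To show where such letters sit, the 250 bases before the RefSeq start are printed for Mrpl12, a protein of the large subunit's stalk, at chr11:120484387-120484636 (plus strand), with the NRF1 letters in capitals.
Mrpl12: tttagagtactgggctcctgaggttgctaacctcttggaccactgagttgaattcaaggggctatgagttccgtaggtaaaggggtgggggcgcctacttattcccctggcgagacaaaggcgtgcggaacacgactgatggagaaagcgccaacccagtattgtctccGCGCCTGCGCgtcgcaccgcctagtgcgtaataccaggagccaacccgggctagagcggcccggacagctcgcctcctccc
The same stretch of Mrps27, at chr13:99344536-99344785 (plus strand), holds the ETS letters on the opposite strand, in capitals, ahead of the YY1 letters shown above.
Mrps27: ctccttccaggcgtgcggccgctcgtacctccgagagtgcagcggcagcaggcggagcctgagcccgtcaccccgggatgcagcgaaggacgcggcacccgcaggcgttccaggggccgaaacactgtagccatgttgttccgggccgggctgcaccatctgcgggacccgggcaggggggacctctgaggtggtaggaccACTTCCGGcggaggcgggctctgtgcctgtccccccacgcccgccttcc

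Of the 77 genes, 76 were measured in all libraries, and these 76 passed the filter on low counts in every fit. The exception was Mrpl53, which had 0 counts in all 30 libraries. Its whole span (chr6:83109095-83109939, 710 bases of exon) lies inside the span of Ccdc142 (chr6:83101617-83109939) on the same strand. Overlap with other genes was common: 32 members shared bases with another gene, 23 of them with another protein-coding one. Mrps11 and Mrpl46 lie head to head and share 413 bases. Mrps34 lies wholly within Mapk8ip3 on the opposite strand. Mrpl33 (chr5:31596935-31701972) shares bases with Rbks on the opposite strand and with Bre on its own. Whether reads were counted by strand is not given in the sources used here, so counts of such pairs cannot be fully told apart.

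Levels of different genes are compared here in FPKM, the counts scaled by gene length and by the library's total. In AL the mean over 5 libraries ran from 3.92 FPKM for Mrps35 to 103 FPKM for Mrpl41, a 26.4-fold range within one complex. The median over the 76 genes was 19.9 FPKM, with quartiles of 12.9 and 34.3. Genes of the large subunit had a median of 21.2 FPKM (47 genes) and those of the small subunit 14.4 FPKM (29 genes). Of the 76 genes, 71 lay above 4.73 FPKM, the median of the 17880 protein-coding genes with any counts in AL. The order of the genes hardly moved between the control groups: the rank correlation of AL and AL-R means was 0.993 across the 76 genes, which are not independent replicates and share their lengths in the calculation.

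**Figure D1:**
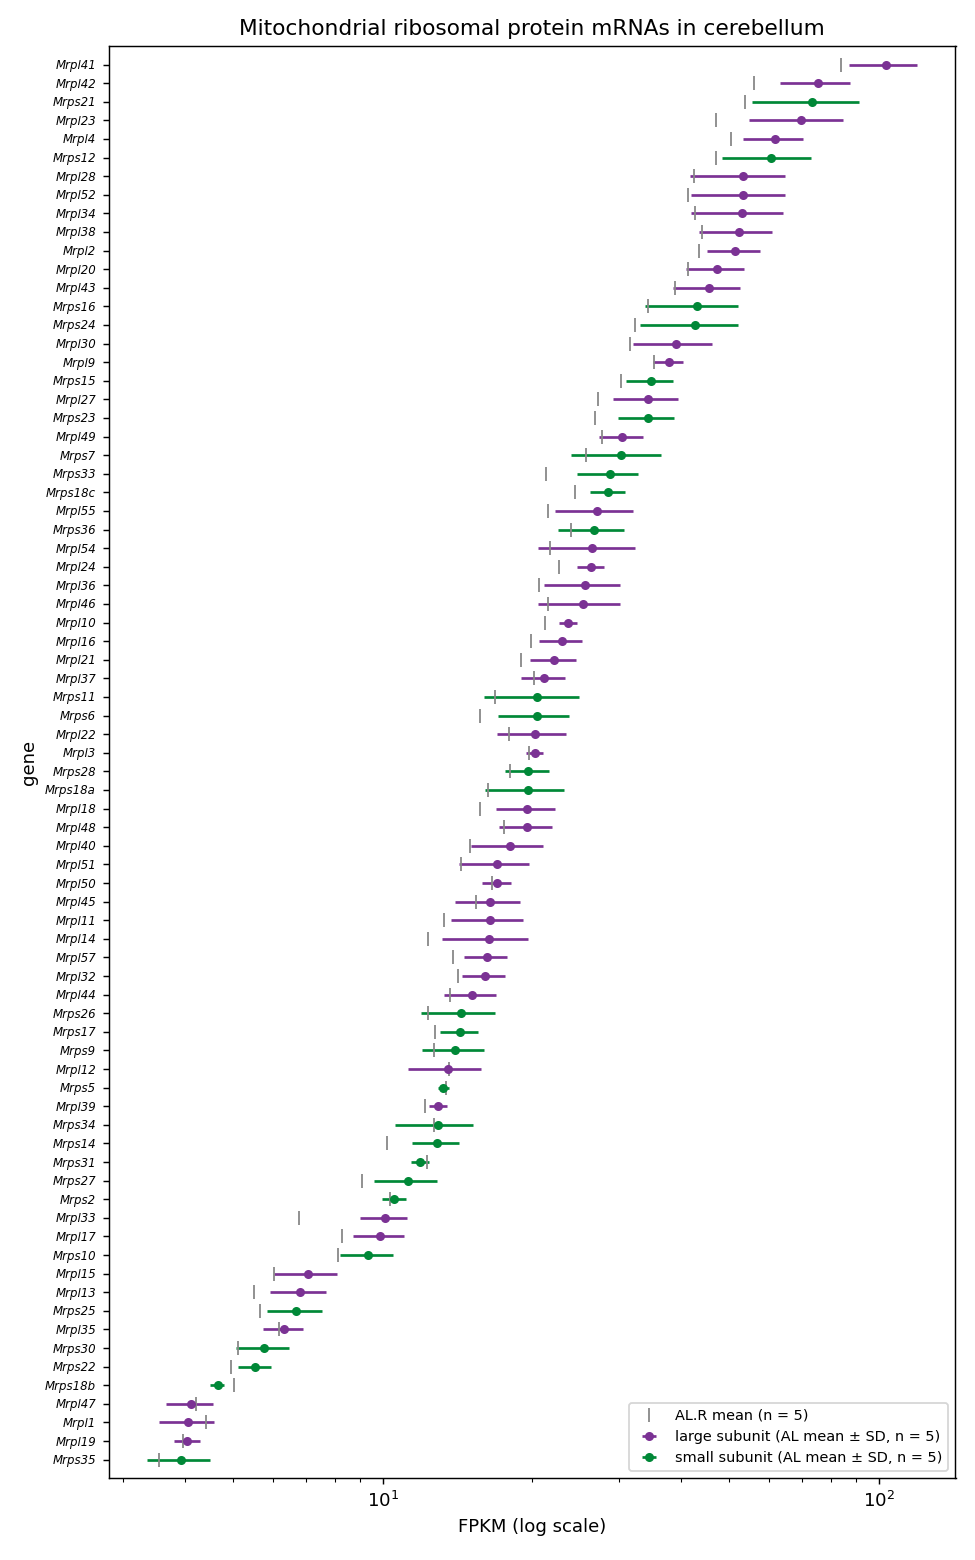
Level of each of the 76 measured genes on a log scale of FPKM, as AL mean ± SD (n = 5; purple large subunit, green small subunit), with the AL-R mean as a grey tick. Mrpl41 stands highest at 103 FPKM and Mrps35 lowest at 3.92, and most grey ticks lie to the left of the AL mean.

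The 4 highest in AL were Mrpl41 (103 ± 16.1 FPKM), Mrpl42 (75.4 ± 12.1), Mrps21 (73.2 ± 17.8) and Mrpl23 (69.6 ± 14.9; SD, n = 5). Neighbours in this order lay within their spread of each other, apart from the step from Mrpl41 to Mrpl42, which exceeded either SD. The 4 lowest were Mrps35 (3.92 ± 0.567 FPKM), Mrpl19 (4.04 ± 0.241), Mrpl1 (4.05 ± 0.513) and Mrpl47 (4.11 ± 0.450), and these did not differ beyond their spread. All 4 are listed with long exon totals, which lowers FPKM where the expressed transcript is shorter than the total.

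Among proteins of the small subunit, Mrps12, whose bacterial counterpart S12 lines the decoding centre, was high at 60.6 ± 12.3 FPKM in AL. Mrps21, the counterpart of S21, stood above it at 73.2 FPKM, as given above. Other counterparts of bacterial small-subunit proteins named by role were lower than Mrps12 in FPKM: Mrps16 at 42.9 ± 9.17, Mrps15 at 34.7 ± 3.81, Mrps7 at 30.2 ± 6.22, Mrps11 at 20.4 ± 4.40, Mrps5 at 13.3 ± 0.325 and Mrps2 at 10.6 ± 0.597. Without scaling by length, Mrps7 and Mrps5 were not below Mrps12, at 59.6, 59.4 and 53.7 CPM in AL (1962, 4481 and 883 bases listed). Mrps16, Mrps15, Mrps11 and Mrps2 were below it in CPM as well. Of the proteins without a bacterial counterpart, Mrps23 was at 34.3 ± 4.44, Mrps33 at 28.7 ± 4.02, Mrps34 at 12.9 ± 2.31, Mrps27, a protein with pentatricopeptide repeats, at 11.3 ± 1.63 and Mrps22 at 5.53 ± 0.417 FPKM, on both sides of the small-subunit median of 14.4. Mrps30, named for the small subunit but placed in the large one by structures of the ribosome, was at 5.77 ± 0.71 FPKM. The 3 paralogues of bacterial S18 differed beyond their spread in FPKM: Mrps18c stood at 28.5 ± 2.27, Mrps18a at 19.6 ± 3.59 and Mrps18b at 4.65 ± 0.152 FPKM. Mrps18a, like Mrps30, is placed in the large subunit by structures. Without scaling by length the order of Mrps18c and Mrps18a was the reverse, at 23.4 and 43.8 CPM in AL (820 and 2220 bases listed). Mrps36 carries a ribosomal symbol, although its product is now known as a subunit of the oxoglutarate dehydrogenase complex.

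Among proteins of the large subunit, those around the peptidyl transferase centre or its core were at differing levels in AL: Mrpl4 at 61.7 ± 8.50, Mrpl2 at 51.4 ± 6.28, Mrpl27 at 34.3 ± 5.17, Mrpl16 at 22.9 ± 2.31 and Mrpl3 at 20.2 ± 0.812 FPKM. Mrpl3 lay below the large-subunit median of 21.2 FPKM. It is listed with 3972 bases and had 80.4 CPM in AL, near the 79.6 CPM of Mrpl4 (1285 bases). The stalk and its base, which recruit translation factors, were lower in FPKM, with Mrpl11 at 16.5 ± 2.69 and Mrpl12 at 13.5 ± 2.28. Without scaling by length, Mrpl11 (2882 bases listed) was at 47.6 CPM in AL. That is above Mrpl27 and Mrpl16 (26.0 and 25.8 CPM) and below Mrpl2, Mrpl3 and Mrpl4. Mrpl12, at 17.9 CPM, was below all of these. Mrpl23 and Mrpl24, near the end of the exit tunnel, were at 69.6 ± 14.9 and 26.3 ± 1.62 FPKM. The small proteins Mrpl36 and Mrpl33 were at 25.6 ± 4.47 and 10.1 ± 1.10 FPKM, and Mrpl13 at 6.81 ± 0.891. In CPM, Mrpl36 and Mrpl33 were at 23.1 and 27.8 in AL (899 and 2741 bases listed). Of the proteins that mitochondria added, Mrpl37 was at 21.2 ± 2.18 and Mrpl44, which resembles RNase III, at 15.1 ± 1.81 FPKM.

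Total counts ran from 26799825 to 36167435 per library, and the common biological coefficient of variation was 14.3% at the end of the regimens and 8.05% after refeeding. Markers of granule cells averaged a log2 CPM of at least 9.10 and markers of Purkinje cells at least 8.00 in every library, as a cerebellum label requires. The list for forebrain lay at most at 2.13 and that for brainstem at most at -0.36. The 11 choroid plexus markers, a tissue at the edge of the dissection, varied widely: the range of their mean log2 CPM was 0.54 to 4.74 among AL libraries, 0.20 to 4.84 among IF16, 3.31 to 4.72 among EOD, 0.43 to 4.36 among AL-R, -0.17 to 3.18 among IF16-R and 0.20 to 4.40 among EOD-R. None of them was at 0 in every library. Red blood cell markers ran from 0.19 to 3.53, and the lists for astrocytes (8.07 to 8.41), oligodendrocytes (8.65 to 9.13), microglia (3.83 to 4.25) and endothelium (4.96 to 5.61) varied less. In bulk tissue, fewer cells of a type and less RNA per cell cannot be told apart.

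At the end of the regimens, the 76 genes rose and fell together, and the order of the libraries followed their gene length profile. Libraries of all 3 groups lay on either side. A library's length gradient is the slope, over all genes tested, of its log2 CPM less the gene's mean over the table on log2 gene length. A negative gradient means that short genes are high in that library. AL replicate 4 had the steepest negative gradient (-0.16) and a median deviation of the 76 genes of 0.38 on the log2 scale, with 72 of 76 above their own mean. IF16 replicate 1 (gradient -0.11) stood at 0.25 with 71 above, and AL replicate 5 (gradient -0.11) at 0.20 with 69 above. EOD replicate 4 had the steepest positive gradient (0.14) and stood at -0.31, with 2 of 76 above their mean. The other 11 libraries lay between -0.11 and 0.05.

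**Figure D2:**
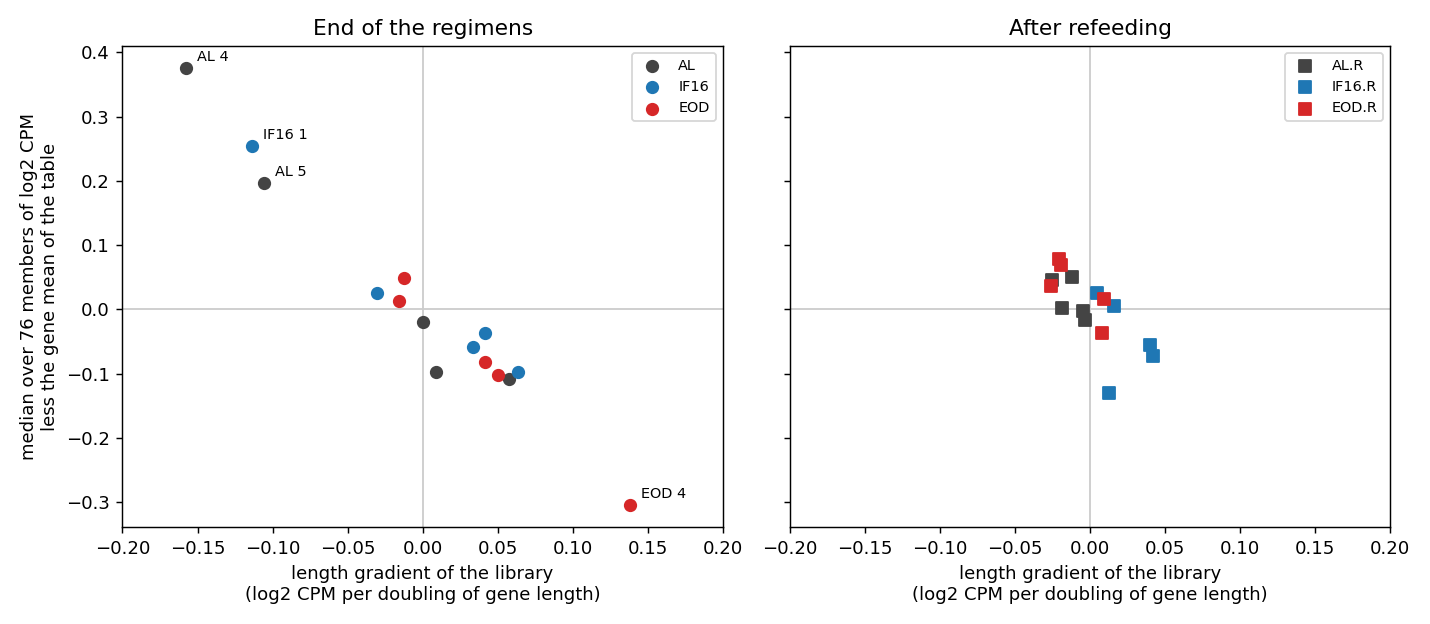
Each point is 1 library: the median over 76 genes of log2 CPM less the gene mean of the table (vertical) against the library's length gradient (horizontal), with the regimens on the left and refeeding on the right. AL 4, AL 5 and IF16 1 lie at the upper left and EOD 4 at the lower right, and the refeeding libraries span a smaller range.

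Across the 15 libraries of the regimens, the median deviation and the gradient had r = -0.98 and rho = -0.95, and r was -0.96 once the 2 with gradients farthest from the median were left out. After refeeding, r was -0.73 and rho -0.76 (n = 15), and r was -0.65 with 2 left out likewise. Both quantities come from the same counts, and the 76 genes are part of the 16577 or 16444 genes that set the gradient, so these are descriptions. Gene by gene, 73 of the 76 fell as the gradient rose at the end of the regimens, against 53.5% of all genes tested. After refeeding, 72 of the 76 fell, against 53.0%. The exceptions at the end of the regimens were Mrpl1, Mrpl35 and Mrps31, with slopes of 1.03, 0.15 and 0.29 on the log2 scale per unit of gradient.

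The genes were short, with a median length of 1407.5 bases against 3165 for the 14855 protein-coding genes tested. In the class up to 1000 bases the 22 members had a median slope of -2.68 at the end of the regimens, and the 769 protein-coding genes of that class -2.60. From 1000 to 2000 bases the medians were -2.32 (26 members) and -1.72. From 2000 to 4000 bases they were -1.42 (19 members) and -0.38. Above 4000 bases the signs parted: the 9 members had a median slope of -2.11, and the 5072 protein-coding genes 1.37. All 9 fell with the gradient, against 20.8% of the protein-coding genes of that length.

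The 9 long members are Mrpl13, Mrpl15, Mrpl19, Mrpl48, Mrps5, Mrps10, Mrps25, Mrps26 and Mrps35. Mrpl13 (6008 bases) and Mrps26 (4278 bases) had slopes of -3.05 and -2.91, as steep as members under 1000 bases. Mrpl19 (5000 bases) and Mrps5 (4481 bases) were flat at -0.31 and -0.44. The same parting was seen after refeeding, where 8 of the 9 fell, with a median slope of -1.47 against 1.07 for long protein-coding genes. Their genomic span was also short, with a median of 14.5 kb against 57.8 kb for the 5072 genes.

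**Figure D3:**
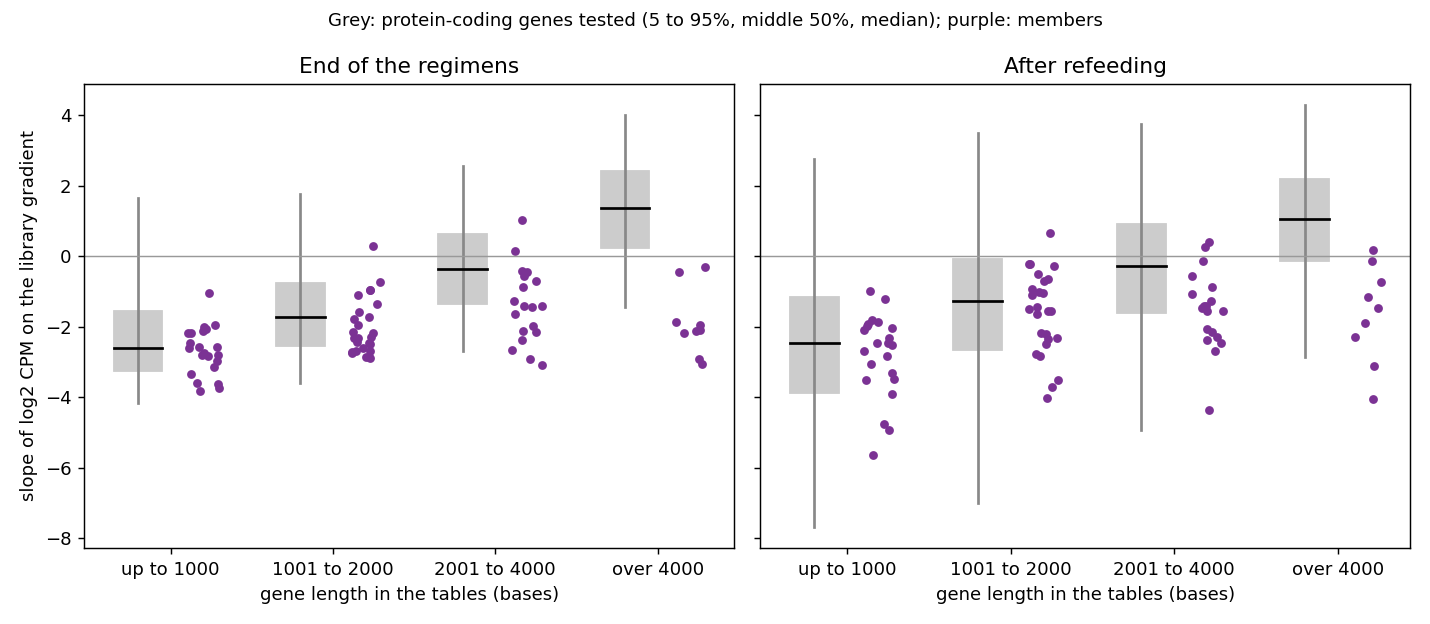
Slope of log2 CPM on the library gradient by listed gene length, for the regimens (left) and refeeding (right); purple points are the members, and grey boxes, lines and black bars give the middle 50%, 5 to 95% and median of protein-coding genes tested. Over 4000 bases the members lie below the grey median of 1.37 (regimens) and 1.07 (refeeding).

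The members differed in how much of this movement they showed. Mrpl23 was at 37.6, 42.6, 45.03, 66.7 and 56.9 CPM in AL replicates 1 to 5, at 61.4, 51.0, 34.9, 40.3 and 40.9 in IF16, and at 39.0, 36.4, 41.6, 32.0 and 42.8 in EOD. AL 4, AL 5 and IF16 1 were the high libraries and the 3 groups overlapped. Mrps12 followed the same libraries, at 44.7, 44.4, 46.0, 70.6 and 62.8 CPM in AL, 62.2, 54.3, 41.8, 43.1 and 45.3 in IF16, and 47.7, 44.7, 50.2, 39.6 and 48.5 in EOD. Mrps5 hardly moved: 58.5, 56.8, 59.8, 60.3 and 61.8 CPM in AL, 60.5, 59.1, 60.5, 57.4 and 59.9 in IF16, and 57.8, 60.2, 57.9, 52.6 and 56.6 in EOD. Only EOD 4 stood apart for Mrps5, on the low side. The median SD of log2 CPM over the 15 libraries was 0.20 for the 76 genes and 0.19 for protein-coding genes; after refeeding it was 0.096 and 0.11. The mean correlation between pairs of members was 0.650 at the end of the regimens and 0.296 after refeeding (n = 15 libraries each).

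**Figure D4:**
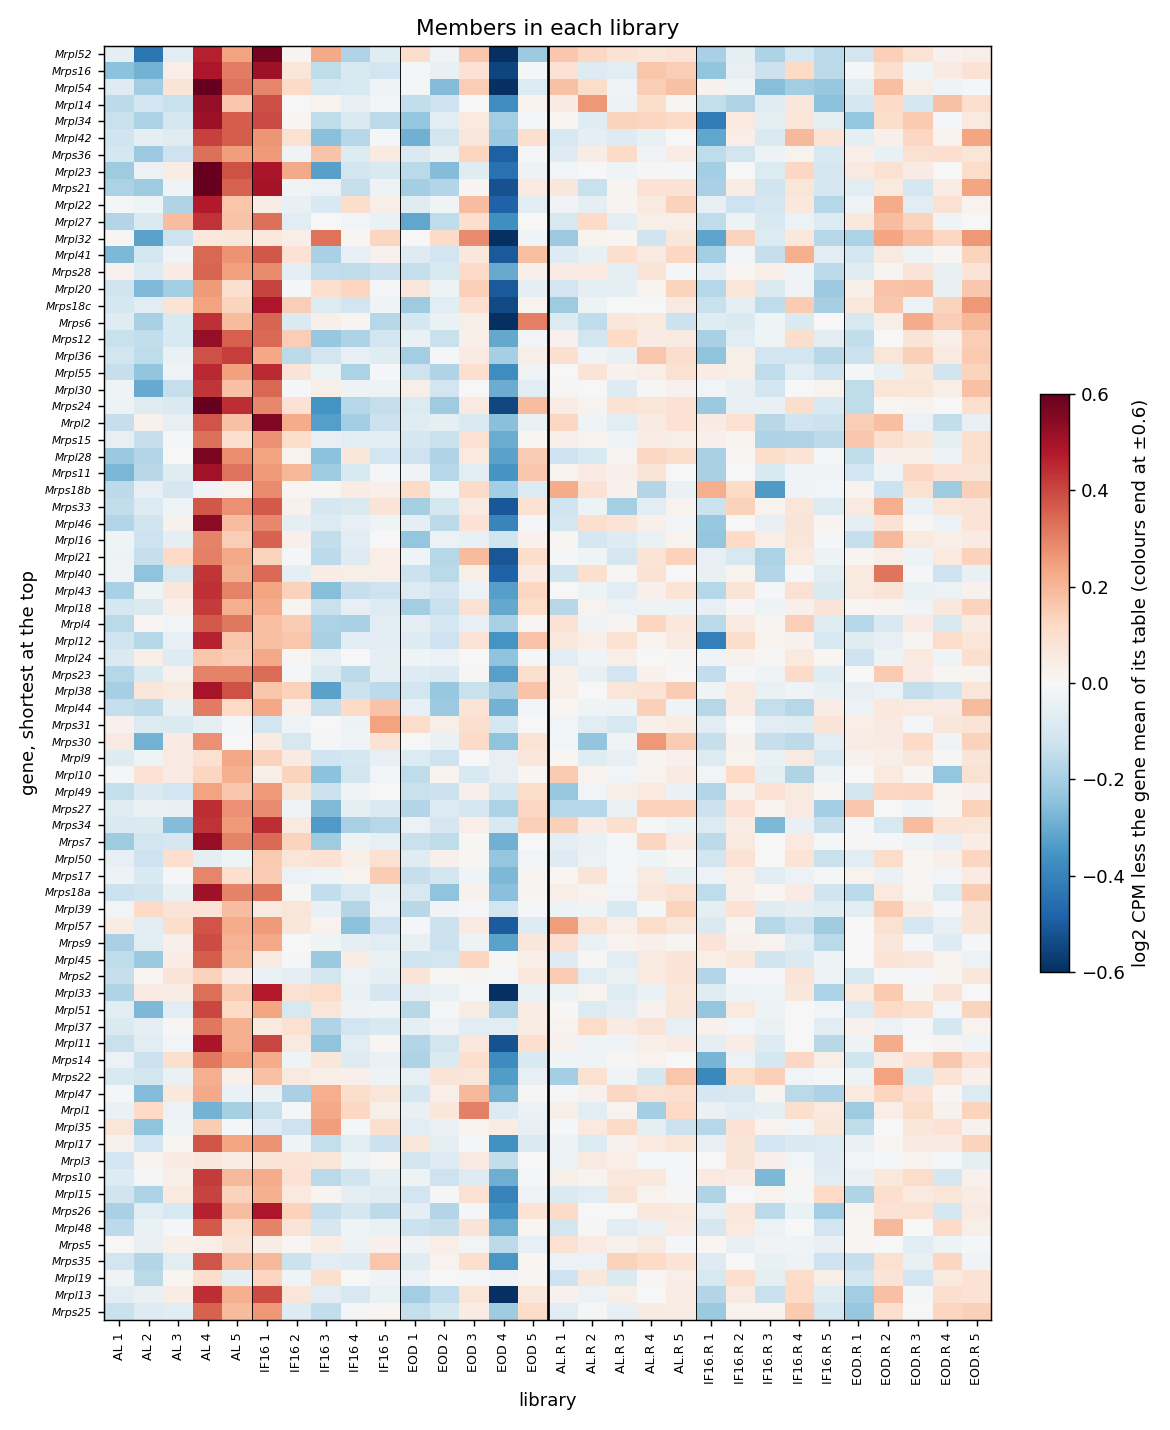
Log2 CPM of each of the 76 genes less its mean over the 15 libraries of its table (colour, ending at ±0.6), with genes ordered from short (top) to long and libraries by group. The columns AL 4, AL 5 and IF16 1 are red and EOD 4 is blue nearly throughout, down to the longest genes, while the refeeding columns are pale.

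The comparison of 16 h daily fasting with ad libitum feeding asked whether the regimen altered these transcripts. None of the 76 genes was called by edgeR at an adjusted p under 0.05, and 8 of 16577 genes (0.0483%) were called in all. None of the 76 had an unadjusted p under 0.05 either, against 9.92% of all genes. The median log2 fold change was -0.053, with 56 of 76 genes below 0 (51.3% of all genes, whose median was -0.0062). Mrpl50, a protein of the large subunit, had the smallest p. It was at 35.4, 33.6, 39.3, 35.3 and 36.03 CPM in AL and at 40.9, 38.6, 39.0, 37.6 and 39.1 in IF16 (log2 fold change 0.12, SE 0.0624, adjusted p = 0.533). AL 3 overlapped the IF16 values. The next were Mrpl38 (-0.23, SE 0.127), Mrpl39 (-0.12, SE 0.0641), Mrpl10 (-0.13, SE 0.0724), Mrpl37 (-0.13, SE 0.0808) and Mrps24 (-0.26, SE 0.165), with adjusted p from 0.552 to 0.593. Without AL replicate 4 the median turned to 0.037, with the length gradient in the model to 0.047, and without the 4 libraries of steepest gradient to 0.043.

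Alternate-day fasting was set against ad libitum feeding with the same question. No member was called by edgeR, and 11 of 16577 genes (0.0664%) were. Over the 76 genes the log2 fold change had a median of -0.17 (all genes tested, -0.018), and 70 of 76 lay below 0 (53.3% of all genes). The shift was alike in both subunits, at -0.17 for 47 large and 29 small members. An unadjusted p under 0.05 was reached by 7 members, all below 0 (9.21%), against 7.40% of all genes in that direction. Mrpl39 had the smallest p, with 27.6, 30.3, 29.4, 29.5 and 31.8 CPM in AL and 24.8, 27.5, 27.7, 25.7 and 27.8 in EOD (log2 fold change -0.15, SE 0.0642, adjusted p = 0.325). Its groups overlapped only through AL 1. Mrpl57 (-0.27, SE 0.113), Mrpl23 (-0.38, SE 0.161), Mrps14 (-0.23, SE 0.0984), Mrps10 (-0.23, SE 0.0989) and Mrpl38 (-0.27, SE 0.127) followed, with adjusted p from 0.327 to 0.344. By length class the members' medians were -0.19 up to 1000 bases, -0.16, -0.12 and, over 4000 bases, -0.15, where protein-coding genes had -0.19, -0.14, -0.030 and 0.11. With the length gradient in the model the median of the 76 was 0.018, and without the 4 libraries of steepest gradient it was 0.053. Choroid plexus markers were high in all 5 EOD libraries and low in AL 1; with these markers in the model the median was -0.20.

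The 2 regimens were compared with each other. No gene of the 16577 was called by edgeR (0%), with 600 at an unadjusted p under 0.05 (3.62%), and DESeq2 called 1 gene. The median of the members was -0.10 in EOD against IF16, with 71 of 76 below 0 (50.2% of all genes). Mrpl50 had the smallest p: its EOD values of 34.9, 37.4, 36.8, 31.2 and 36.2 CPM all lay below the IF16 values given above (log2 fold change -0.14, SE 0.0624, adjusted p = 0.977). It was the one member lower without overlap (0.374% of all genes). Mrps2 was the one member higher without overlap (0.314% of all genes). Mrpl33 (-0.28), Mrps17 (-0.16), Mrpl44 (-0.18), Mrps18c (-0.22) and Mrpl3 (-0.097) followed at the same adjusted p. Without the 4 libraries of steepest gradient the median was 0.0038.

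Once refed, the mice that had fasted 16 h a day were compared with their controls to see whether a difference remained. No member was called by edgeR, and 28 of 16444 genes (0.170%) were. The median log2 fold change was -0.056 against -0.0023 for all genes, with 65 of 76 below 0 (51.2% of all genes). By subunit, 28 of 29 small and 37 of 47 large members were below 0, with medians of -0.068 and -0.053. An unadjusted p under 0.05 was reached by 9 members, all below 0 (11.8%), against 4.83% of all genes. In 3 members the libraries of the groups did not overlap, all lower in IF16-R (3.95%, against 1.11% of all genes). Mrpl52, a protein of the large subunit, was at 17.6, 17.1, 16.7, 16.5 and 16.6 CPM in AL-R with IF16-R libraries at 13.7, 15.1, 13.8, 14.6 and 14.02 CPM (log2 fold change -0.24, SE 0.0543, adjusted p = 0.0877). Every AL-R library was above every IF16-R library. Mrpl57 was at 35.1, 31.5, 30.3, 31.9 and 31.03 CPM in AL-R with IF16-R libraries at 27.8, 29.9, 26.2, 26.96 and 25.5 CPM (log2 fold change -0.23, SE 0.0545, adjusted p = 0.122). Again the groups did not overlap. Both genes passed the threshold with DESeq2 (adjusted p = 0.0177 for Mrpl52 and 0.0243 for Mrpl57). DESeq2 called 0.639% of all genes there, 0.328% of them lower in IF16-R as a share of all genes. Mrpl54 (-0.25), Mrpl47 (-0.17), Mrpl36 (-0.18) and Mrps26 (-0.12) came next, with adjusted p from 0.223 to 0.448. The length gradients of the 2 groups did not overlap either, at -0.026 to -0.0036 in AL-R and 0.0046 to 0.042 in IF16-R. With the gradient in the model the median of the 76 was 0.023, and none of the 76 had an unadjusted p under 0.05. Of all genes 4.16% then had such a p, against 9.58% without the gradient. Since the gradients of the groups do not overlap, group and gradient cannot be told apart in this fit.

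Alternate-day fasting followed by refeeding left the members near their controls. None was called by edgeR (0.0426% of all genes), the median was 0.015, and 32 of 76 lay below 0 (49.7% of all genes). The smallest p values were those of Mrpl38 (-0.12, SE 0.0432, adjusted p = 0.418), Mrps33 (0.15, SE 0.0600), Mrpl48 (0.11, SE 0.0455), Mrps6 (0.15, SE 0.0665), Mrps18c (0.16, SE 0.0707) and Mrpl57 (-0.11, SE 0.0544). Their directions were mixed, and all 6 had overlapping groups.

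The refed regimens were also set against each other. No member was called by edgeR, and 3 of 16444 genes (0.0182%) were. The median in EOD-R against IF16-R was 0.073, with 69 of 76 above 0 (52.1% of all genes). An unadjusted p under 0.05 was reached by 16 members, all above 0 (21.1%), against 4.99% of all genes. Mrpl52 led again, at 14.53, 17.4, 16.6, 15.96 and 16.1 CPM in EOD-R (log2 fold change 0.18, SE 0.0545, adjusted p = 0.307), and its groups overlapped through EOD-R 1. Mrps15 (0.17), Mrpl20 (0.18), Mrpl27 (0.15), Mrpl36 (0.18) and Mrps18c (0.19) had adjusted p from 0.307 to 0.354. Mrpl27, with the YY1 letters shown above, was the one member whose groups did not overlap (0.791% of all genes): 18.3, 19.95, 19.1, 19.9 and 19.2 CPM in IF16-R against 21.3, 23.2, 22.3, 20.1 and 20.4 in EOD-R. With the gradient in the model the median was 0.0062. This comparison and the one before it share the EOD-R libraries, and this one shares the IF16-R libraries with the comparison against AL-R.

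An interaction over all 30 libraries tested directly whether the effect of a regimen differed before and after refeeding. For IF16 no member was called by edgeR (0.0474% of 16877 genes were), none had an unadjusted p under 0.05 (7.21% of genes did), and the median was -0.0096. Mrpl47 (-0.20, SE 0.119, adjusted p = 0.748) had the smallest p. For EOD none was called either (0.0119% of genes), the median was 0.16, and 70 of 76 were above 0 (51.0% of all genes). Of these, 9 had an unadjusted p under 0.05 (11.8%, against 5.48% of genes in that direction). Mrpl23 had the smallest p (0.44, SE 0.174, adjusted p = 0.462), followed in order of p by Mrpl39 (0.20), Mrps33 (0.36), Mrps14 (0.29), Mrpl27 (0.32) and Mrpl48 (0.25), with adjusted p from 0.465 to 0.467. With the gradient in the model the EOD median was -0.00101.

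**Figure D5:**
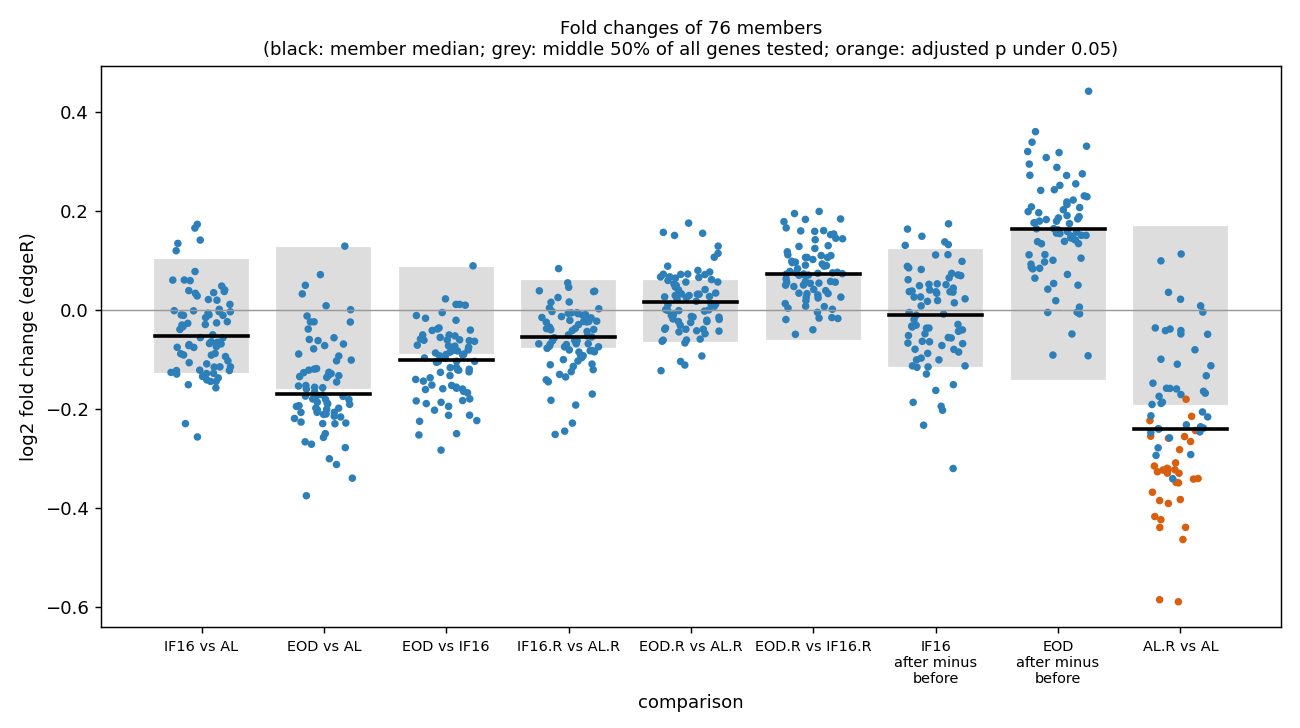
Log2 fold change of each of the 76 genes in the 9 comparisons (points), with their median (black bar) and the middle 50% of all genes tested (grey); orange points have an adjusted p under 0.05 (edgeR). Orange points occur in AL-R vs AL only, where the member median is -0.24.

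The control mice of the 2 sets were compared last. AL-R and AL differ in age (8 and 6 months), in the deposited table and in any handling that differed between the sets, and these cannot be told apart. In this comparison 33 of the 76 genes fell and none rose by edgeR (43.4%), against 23.9% of all 16877 genes called and 12.4% called lower. The median log2 fold change was -0.24 against -0.012 for all genes, with 71 of 76 below 0 (51.8% of all genes). Large and small members had medians of -0.24 and -0.24. In 17 members every AL-R library lay below every AL library (22.4%, against 4.75% of all genes). On a scale set over all 30 libraries, Mrpl33, a small protein of the large subunit, was at 23.2, 27.1, 27.2, 32.7 and 28.9 CPM in AL and at 18.3, 18.9, 17.7, 18.1 and 19.4 in AL-R (log2 fold change -0.59, SE 0.110, adjusted p = 0.00289). AL 1, the lowest of the AL libraries, was still above every AL-R library. Mrpl23 was at 37.8, 42.8, 45.5, 66.4 and 56.6 CPM in AL and at 33.2, 33.4, 32.8, 33.5 and 33.1 in AL-R (-0.59, SE 0.123, adjusted p = 0.00478). AL 4 and AL 5 were far above the other AL libraries, and AL 1 was again the lowest and above every AL-R library.

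The other genes called with the smallest p were Mrps33 (-0.44, adjusted p = 0.00717), Mrps23 (-0.37, 0.00785), Mrps14 (-0.35, 0.00803), Mrpl42 (-0.44, 0.00811), Mrpl18 (-0.33, 0.0113), Mrpl14 (-0.42, 0.0117) and Mrpl24 (-0.22, 0.0122), all without overlap. The remaining 24 called genes had log2 fold changes from -0.46 for Mrps21 to -0.18 for Mrps17. By role, the decoding-centre protein Mrps12 (-0.38), the stalk base Mrpl11 (-0.32), Mrpl4 (-0.31) and Mrpl27 (-0.35) of the large subunit's core, and Mrpl36 (-0.32) fell. Of the S18 paralogues Mrps18a fell (-0.28), Mrps18b stood at 4.7, 5.1, 4.9, 5.1 and 5.3 CPM in AL and 6.2, 5.6, 5.4, 4.6 and 5.1 in AL-R, and neither Mrps18b nor Mrps18c was called. Mrps5 was at 59.5 ± 1.72 CPM in AL and 59.9 ± 1.65 in AL-R, and Mrpl12 at 17.9 ± 3.33 and 17.8 ± 0.363 (SD, n = 5 each).

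The gradient moved with this comparison too. On the joint scale AL libraries had gradients from -0.19 to 0.016, and AL-R libraries from 0.013 to 0.033. In the class up to 1000 bases 14 of 22 members were called lower, against 39.6% of the protein-coding genes of that class, and the medians were -0.34 and -0.29. From 1000 to 2000 bases 9 of 26 were called lower against 28.8%. From 2000 to 4000 bases it was 8 of 19 against 11.7%, and over 4000 bases 2 of 9 (Mrpl13 and Mrps25) against 2.85%. The medians of these longest genes were -0.21 for the members and 0.15 for protein-coding genes. With the gradient in the model no member was called and the median was -0.0026, with 10 members at an unadjusted p under 0.05 (13.8% of all genes were, and 1.32% of all genes were called). With a length trend fitted in each library and taken out as an offset, 10 of the 33 were still called. Mrpl15 (-0.31) was then also called lower, and Mrps18b higher (0.29, adjusted p = 0.0456), where 10.3% of all genes were called. With choroid plexus markers in the model 8 of the 33 were called, and 7.07% of all genes. With AL and AL-R libraries alone in the fit, Mrpl33 was the one called, and 0.172% of all genes. Without AL 4 there were 6, where 2.58% of all genes were called lower, and without AL 5 there were 9 (4.08%). Without AL-R 2, 3 or 1 there were 15, 18 and 20 (6.27%, 6.62% and 9.49%), and without AL 1 there were 50 (17.6%). Without the 4 libraries of steepest gradient, Mrpl33 (-0.48, adjusted p = 0.000243), Mrpl23 (-0.34), Mrps33 (-0.27) and Mrps23 (-0.21) were called, and 2.37% of all genes.

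Other genes of mitochondrial translation were read from fixed lists, counted by the same edgeR fits. In the 5 comparisons of regimens or refed regimens other than IF16-R against AL-R, and in both interactions, no gene of these lists was called. Of 6 ribosome proteins with other symbols, 4 fell in AL-R against AL: Aurkaip1 (-0.41), Chchd1 (-0.41), Ict1, a peptidyl-tRNA hydrolase built into the large subunit (-0.39), and Dap3, a GTP-binding protein of the small subunit (-0.19). The other 2 had log2 fold changes above 0 and were not called, and the list median was -0.29. Of all genes 12.4% were called lower and 11.5% higher, and the shares called lower in the next 3 lists lie near the first of these. Of 24 assembly factors 3 fell, the GTPase Mtg2 (-0.29), the rRNA methyltransferase Ftsj2 (-0.26) and Mpv17l2 (-0.33), and the median was -0.15. Of 15 translation factors 2 fell, the elongation factor Tufm (-0.28) and the recycling factor Mrrf (-0.20), with a median of -0.054. Of 20 aminoacyl-tRNA synthetases and related enzymes 3 fell, Tars2 (-0.23), Cars2 (-0.24) and Pars2 (-0.32), and 2 rose, Mars2 (0.52) and Wars2 (0.36), with a median of -0.100.

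In the same comparison, of 17 genes for mitochondrial transcription or nuclear control 3 rose (11.5% of all genes were called higher), Ppargc1a (0.40, adjusted p = 0.00997), the coactivator PGC-1alpha, its relative Pprc1 (0.41, adjusted p = 0.00698) and the mitochondrial DNA polymerase Polg (0.24, adjusted p = 0.0173), and none fell, with a median of -0.018. All 3 are listed with over 4000 bases (6464, 5246 and 5277), a class in which protein-coding genes had a median of 0.15 here.

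Messages that the mitochondrial ribosome translates were measured as 13 genes of the mitochondrial genome. In IF16-R against AL-R 3 of 13 fell by edgeR: mt-Nd3 (-0.74, SE 0.130), mt-Atp6 (-0.46, SE 0.0786) and mt-Co3 (-0.44, SE 0.0781), each with an adjusted p of 0.0312. Of all genes 0.103% were called lower. These calls did not last under every setting: with the length gradient in the model, or without IF16-R replicate 3, no gene at all was called. The median over the 13 was -0.13. These 3 were listed at low levels beside their neighbours, with AL means of 23.7, 96.5 and 109 FPKM against 8536 for mt-Co1 and 5530 for mt-Cytb. In AL-R against AL, mt-Atp8 (2.99) and mt-Nd4l (1.17) rose and mt-Nd4 fell (-0.21). Of all genes 11.5% were called higher and 12.4% lower there, and the counts among the 13 lie near these shares. The mean of mt-Atp8 was 0.205 FPKM in AL and 1.76 in AL-R, far under the other messages. The mouse nuclear genome holds near-identical copies of parts of the mitochondrial genome, and how reads that fit both were counted is not given in the sources used here, so these values are uncertain.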

How the data were processed

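RNA-seq libraries of cerebellum (30, 5 in each of 6 groups) were analysed; 12 chromatin samples were not analysed here. The authors deposited whole-number counts per gene in 2 tables of 15 libraries, and FPKM values that are those counts scaled by length and library total, recomputed here (largest relative difference 5e-12). Reads were handled with STAR 2.5 and HTSeq 0.6.1 on mm10, per the submitters' processing notes; strand handling and RNA selection are not given in the sources used here. Gene length and position are as given per the file headers.

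The counts went into edgeR 4.0.16 (R 4.3.3; TMM, filterByExpr by group, quasi-likelihood test), with Benjamini-Hochberg adjustment over all genes tested: 16577 in the regimen table, 16444 in the refeeding table and 16877 over 30 libraries (interactions, AL-R against AL). CPM values are TMM-scaled within the fit. Standard errors come from the F statistic. The test was checked on simulated data.

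Alternatives were DESeq2 1.42.0, RLE size factors, no filter, the length gradient or choroid plexus markers as covariate, a loess length trend as offset, a replicate block, only the groups compared, and leaving out each library; leaving out the 4 steepest libraries was added after seeing the data. The members, lists and tests were chosen with earlier results of these data known. Named genes were those called, or the 6 of smallest p in a comparison with fewer calls, the 4 highest and lowest by AL level, and members fixed by role; Mrps31, Mrpl35 and the 9 longest were named after their values were seen, as were Mrpl45, Mrpl43, Mrps9 and Mrpl46 by sequence or position.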

Additional observations from a re-analysis of the deposited data

Results flagged for a closer look

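Single libraries far from the other 4 of their group were looked for in the CPM values of 18 members, chosen after their values were seen, and in the median deviation, count share and length gradient of the libraries, for each of the 6 groups. Of 126 groups tested, 6 held such a library, and chance flags about 1 in 20. EOD replicate 4 had 15.1 CPM of Mrpl33, where the other 4 EOD libraries had 25.1 to 25.9. IF16 replicate 1 was high in 4 genes: Mrpl14 at 13.1 CPM, Mrpl27 at 29.99, Mrps18b at 6.37 and Mrps23 at 57.2, where the nearest IF16 library had 10.2, 23.8, 5.40 and 45.2. Both libraries are among the 4 with the steepest length gradient. IF16-R replicate 2 had 29.6 CPM of Mrpl39, where the nearest had 26.9.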

How the results depend on the processing

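In 8 of the 9 comparisons no member was called, and this held under every alternative run, except that IF16-R against AL-R had 2 called lower (Mrpl52 and Mrpl57) with DESeq2 and the same 2 with the replicate block (adjusted p = 0.0487 and 0.0383). Of all genes, DESeq2 called 0.328% lower there and the block 0.334%. With the length gradient as a covariate these medians moved by more than the median SE of a single member: to 0.018 in EOD against AL, 0.023 in IF16-R against AL-R, 0.0062 in EOD-R against IF16-R, -0.00101 in the EOD interaction and -0.0026 in AL-R against AL. In IF16 against AL the median turned to 0.047 with the gradient and 0.043 without the 4 steepest libraries. Both moves were smaller than the median SE of a single member there (0.116). That SE does not measure the spread of a median over genes that move together. Without those libraries the medians were 0.053 in EOD against AL, -0.038 in the EOD interaction and -0.092 in AL-R against AL. In AL-R against AL the 33 calls stood against 0 with the gradient, 12 with the length offset (10 of the 33, Mrpl15, and Mrps18b as a rise), 8 with choroid plexus markers, 1 with only the groups compared, 4 without the 4 steepest libraries, and 6 to 50 when 1 library was left out; the cause was not tested. All 33 remained with DESeq2 and 32 with RLE size factors. With the gradient as a covariate, 0 members changed sign in the IF16 interaction, 4 in EOD-R against AL-R, and 24 to 45 of the 76 in the other 7 comparisons (32 in AL-R against AL). Of the genes called or of smallest p in a comparison, 5 changed sign, to 0.050 for Mrps26 in IF16-R against AL-R and to 0.013 or 0.014 (Mrpl41, Mrpl11), 0.019 (Mrpl38) and 0.011 (Mrps18a) in AL-R against AL.

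Replicate numbers were not taken as pairs, since not every same-numbered pair had a correlation of deviations over 0.1: r ran from -0.53 to 0.32 at the end of the regimens (over 0.1 in 3 of 15 pairs, against 24 of 60 pairs of unlike number). After refeeding r ran from -0.055 to 0.43 (8 of 15, median 0.104, against 12 of 60, median -0.042). The library of another group that correlated best had the same number in 2 of 30 cases and in 11 of 30. With the replicate block, the median in AL-R against AL was -0.24, and 22 of the 33 genes remained called.

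With 1 library left out, the medians ran from -0.12 to 0.037 in IF16 against AL, -0.21 to -0.071 in EOD against AL, -0.13 to -0.041 in EOD against IF16, -0.071 to -0.036 in IF16-R against AL-R, 0.0059 to 0.037 in EOD-R against AL-R, 0.051 to 0.098 in EOD-R against IF16-R, -0.075 to 0.065 and 0.089 to 0.21 in the IF16 and EOD interactions, and -0.27 to -0.17 in AL-R against AL.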
